A study of Mus musculus with 54 samples.

Results

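Guanylate-binding proteins (GBPs) are interferon-inducible GTPases, and the expression of the mouse genes Gbp2 to Gbp11 was followed in macrophages across 15 conditions of RNA sequencing. The genes were taken by symbol, which gave 10 genes, and 7 of them (Gbp2, Gbp3, Gbp4, Gbp7, Gbp8, Gbp9 and Gbp11) had a row among the 39179 gene identifiers of the count tables. The GENCODE M21 identifiers of Gbp5, Gbp6 and Gbp10 had no row, and these 3 genes are not analysed here. A row of another identifier, that of Gbp2b in M21, stands in the files where Gbp5 lies in M21, and which of these genes its reads came from could not be told. All 7 genes passed the filter on low counts in both experiments, which Gbp11 did through its reads in M1-like macrophages. Its calls in comparisons with M1-like cells are therefore no independent result, although it is counted among the 7 genes and in their medians below.

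The cells were adherent peritoneal exudate macrophages of C57BL/6 mice injected with thioglycolate, which elicits macrophages. In the polarization experiment, cells of 3 mice stayed for 24 h without stimulus (M0), with LPS at 100 ng/ml plus IFNγ at 50 ng/ml (M1-like) or with IL-4 at 10 ng/ml (M2-like), and 2 technical replicates per mouse and condition gave 18 libraries of single-end reads of 50 nucleotides. In the reprogramming experiment, 12 conditions with 3 replicates gave 36 libraries of paired-end reads of 150 nucleotides. These were untransfected macrophages of the M0, M1-like and M2-like kind, the same 3 given only transfection reagent (mock), and M2-like macrophages given a negative siRNA pool, an siRNA pool against E2f1, Myc, Pparg or Stat6, or all of the last 4 pools together (iM1). In the reprogramming experiment, transfection followed 24 h of polarization, and RNA was taken 48 h later from medium without IL-4. The methods give 24 h of polarization as the time at which untransfected M0, M1-like and M2-like cells were profiled, so mock and untransfected samples may differ in time in culture and in cytokine withdrawal as well as in the reagent. The study counts its replicates as biological in its account of RNA isolation for PCR, but neither the labels nor the methods say whether those of the reprogramming experiment came from separate mice, so its p-values measure the spread between these samples. That spread (4.48 to 23.0 in chi-square per gene between 2 replicates) was above that of technical replicates (1.07 to 1.10). In bulk RNA, fewer cells of a type and less RNA per cell cannot be told apart.

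The libraries held 13421854 to 29880494 counted reads, and the technical replicates were summed to 39577911 to 59443987 reads per mouse and condition. Expression is given as CPM, read counts scaled to a common library size after TMM normalization, which was done separately in each experiment. Fold changes are given as log2 values with their standard error (SE). The mRNA of the siRNA targets stood at 18.9% to 35.4% of the M2-like mock mean with their own pool and at 31.0% to 55.1% in iM1, while E2f1 stood at 74.8% with the negative pool. The 8 macrophage markers were at 1 CPM or more in every condition, and the 6 markers of T and NK cells, which are sources of IFNγ in tissue, summed to at most 4.24 CPM in any library.

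GBPs are large GTPases that assemble on the membranes of pathogen vacuoles and on bacteria, help to open the vacuoles and promote the activation of inflammasomes. Their genes are classical targets of IFNγ, which signals through JAK kinases to GAS elements and, by way of IRF1, to ISRE elements. Type I interferons also act on ISRE elements. In the mouse, the genes lie in a cluster on chromosome 3 and a cluster on chromosome 5.

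On the plus strand of chromosome 3 of GRCm38 (GENCODE M21), Gbp7 (ENSMUSG00000040253) spans 142530342 to 142550149, Gbp3 (ENSMUSG00000028268) spans 142560026 to 142573209 and Gbp2 (ENSMUSG00000028270) spans 142620602 to 142638008. On the minus strand of chromosome 5, Gbp8 (ENSMUSG00000034438) spans 105014150 to 105139540, Gbp9 (ENSMUSG00000029298) spans 105077630 to 105139539 and Gbp4 (ENSMUSG00000079363) spans 105115767 to 105139586, so that these 3 gene models overlap. Gbp11 (ENSMUSG00000092021) spans 105323042 to 105346472 on the same strand and is annotated as a polymorphic pseudogene. Whether the counting used strand, and how it treated reads that fit several genes, is not given in the sources used here, so reads of overlapping or similar genes may be split between them. Of all stretches of 50 bases in the transcripts of a gene, 2.03% (Gbp2), 3.75% (Gbp3), 7.78% (Gbp4), 8.05% (Gbp9), 12.7% (Gbp7), 18.1% (Gbp8) and 19.2% (Gbp11) also occur in another gene. At 150 bases, the share is 8.77% for Gbp7, shared with Gm43802, and at most 0.0786% for the other 6 genes.

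**Figure D1:**
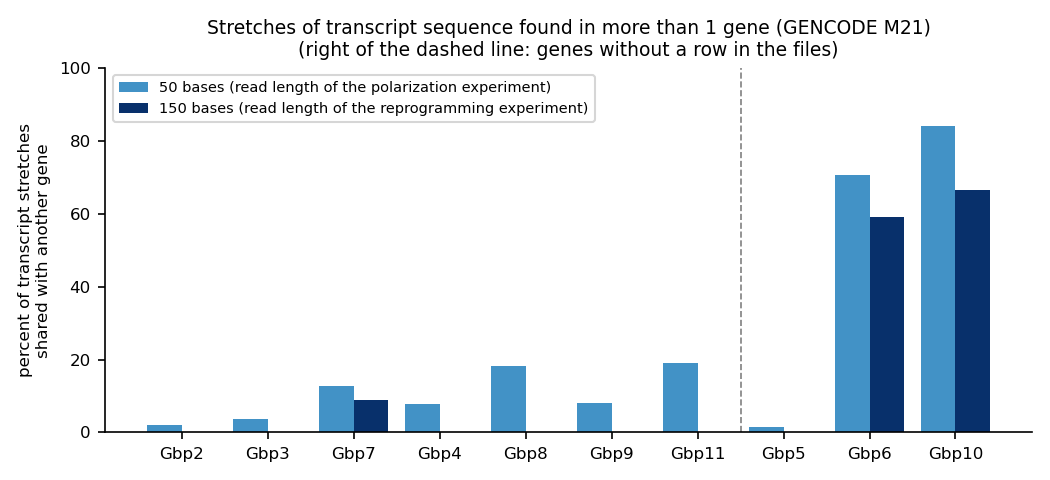
Percent of the transcript stretches of 50 and of 150 bases of each gene that also occur in another gene, from GENCODE M21. Among the 7 genes with a row the bars reach 19.2% (Gbp11, 50 bases), whereas Gbp6 and Gbp10, which have no row, reach 70.7% and 84.1%.

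The sequences before the RefSeq starts of the chromosome 3 genes Gbp7, Gbp3 and Gbp2 are shown, the only analysed genes with such a start at hand. These 3 genes were also called higher both with IL-4 at 24 h and in mock against untransfected M2-like and M0 cells. RefSeq start sites were at hand for 4 of the 10 genes (Gbp2, Gbp3, Gbp5 and Gbp7). The 250 bases before each start were searched on both strands for an ISRE (GAAANNGAAA, which reads TTTCNNTTTC on the other strand), a GAS element (TTCNNNGAA) and an EICE (GGAANNGAAA), a site for ETS and IRF factors. The sequences are from RefSeq on GRCm38.p6, plus strand, with matches in capitals, and lie at chr3:142530086-142530335 for Gbp7, chr3:142559794-142560043 for Gbp3 and chr3:142620413-142620631 for Gbp2. The GENCODE M21 models of Gbp3 and Gbp2 start before these RefSeq starts, so that the last 18 bases printed for Gbp3 and the last 30 for Gbp2 lie inside the M21 model, and the rest of the searched Gbp2 window is not printed.
Gbp7: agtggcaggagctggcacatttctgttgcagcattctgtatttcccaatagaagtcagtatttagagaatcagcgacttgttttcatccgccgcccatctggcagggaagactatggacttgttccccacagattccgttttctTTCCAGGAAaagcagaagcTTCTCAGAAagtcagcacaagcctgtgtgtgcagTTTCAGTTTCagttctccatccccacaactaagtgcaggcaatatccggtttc
Gbp3: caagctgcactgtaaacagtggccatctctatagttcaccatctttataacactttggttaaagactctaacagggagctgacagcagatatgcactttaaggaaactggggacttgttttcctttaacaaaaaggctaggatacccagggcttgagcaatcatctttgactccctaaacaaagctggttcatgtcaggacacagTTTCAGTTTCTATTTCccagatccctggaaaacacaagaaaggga
Gbp2: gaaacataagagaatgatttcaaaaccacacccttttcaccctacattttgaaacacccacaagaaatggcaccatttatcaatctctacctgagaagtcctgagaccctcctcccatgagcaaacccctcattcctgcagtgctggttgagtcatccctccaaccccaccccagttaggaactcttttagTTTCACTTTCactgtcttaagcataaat

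An ISRE match stood in each of these sequences, in the minus strand orientation, at -53 to -44 from the RefSeq start in Gbp7, at -59 to -50 in Gbp2, and at -45 to -36 and -39 to -30 in Gbp3, where both matches overlap each other. The match of Gbp2 lies inside its M21 model, and those of Gbp3 lie before theirs. Gbp7 also held 2 GAS matches, at -106 to -98 and -87 to -79, and none of the 3 sequences held an EICE match. The window of a second RefSeq start of Gbp3, inside the M21 model, held none of the motifs. Of 32851 RefSeq windows of 250 bases, 2.98% held an ISRE match, 7.02% a GAS match and 2.3% an EICE match. A match describes letters only.

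After 24 h of polarization, each of the 7 GBP genes stood far higher in M1-like than M2-like cells. Gbp2, whose prenylated protein goes to vacuoles of intracellular pathogens, had 7278, 7068 and 7291 CPM in the M1-like samples of the 3 mice. It had 32.7, 24.6 and 21.2 CPM in the M2-like and 18.5, 16.6 and 16.5 CPM in the M0 samples. Gbp4, encoded on chromosome 5, had 1872, 1571 and 1682 CPM in M1-like and 0.556, 0.336 and 0.435 CPM in M2-like samples. The M1-like samples lay above all others for each of the 7 genes, as 35.3% of all genes tested did against M2-like and 38.4% against M0 samples. Gbp3, which is also recruited to parasite vacuoles, ranged from 1313 to 1449 CPM in M1-like and from 9.18 to 13.5 CPM in M2-like samples. Gbp7, which has been linked to the phagocyte oxidase, ranged from 812 to 839.9 CPM and from 9.67 to 12.2 CPM. Gbp9 ranged from 526 to 563 CPM and from 5.51 to 6.11 CPM. Gbp8 was the low member of the protein-coding genes, at 72.4 to 85.8 CPM in M1-like and 0.742 to 0.903 CPM in M2-like samples. Gbp11 had 1.28 to 2.70 CPM in M1-like samples and no read in M0 and M2-like samples.

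All 7 genes were higher in M1-like than M2-like cells at an adjusted p under 0.05 from edgeR's quasi-likelihood test, where 34.6% of the 16110 genes tested were higher. Their median log2 fold change was 7.004 beside -0.06 over all genes. Gbp4 had the widest gap of the 6 genes with reads in both groups (11.93, SE 0.16, adjusted p = 1.44e-13 from edgeR), followed by Gbp2 (8.11, SE 0.17) and Gbp3 (7.004, SE 0.15). Gbp8, Gbp9 and Gbp7 lay close together at 6.58, 6.56 and 6.29. Gbp11, with 239 reads over the M1-like and none over the M2-like samples, was at least 73.3-fold higher, counted against a floor of 3 reads over the group. It was tested only through its M1-like reads, so its call is no independent result. Against M0, all 7 genes were also higher, where 35.4% of genes were, with log2 fold changes from 6.60 (Gbp8) to 12.47 (Gbp4) among the 6 genes with reads in M0.

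Between M1-like and M2-like samples, the summed levels of 5 of 8 lists of cell type markers did not overlap. The neutrophil markers were higher in M1-like samples, at 9.35 to 14.0 against 5.62 to 6.80 CPM (1 and 1 of 5 at 1 CPM or more), as were the endothelial markers, at 27.2 to 45.8 against 4.77 to 6.15 CPM (3 and 1 of 3 at 1 CPM or more). The eosinophil and mast cell markers were lower in M1-like samples, at 0.395 to 1.02 against 14.3 to 18.8 CPM (0 and 1 of 5 at 1 CPM or more), as were the fibroblast and mesothelial markers, at 7.19 to 9.40 against 9.67 to 13.2 CPM (2 and 3 of 6 at 1 CPM or more). In M1-like samples, the macrophage markers were lower, at 10392 to 11385 against 12729 to 13060.0 CPM. S100a9, Elane, Epx and Prg2 stood at 0 in both groups, Upk3b in M1-like samples, and Ly6g and Mpo in M2-like samples. The part of these markers in the GBP result was not tested.

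**Figure D2:**
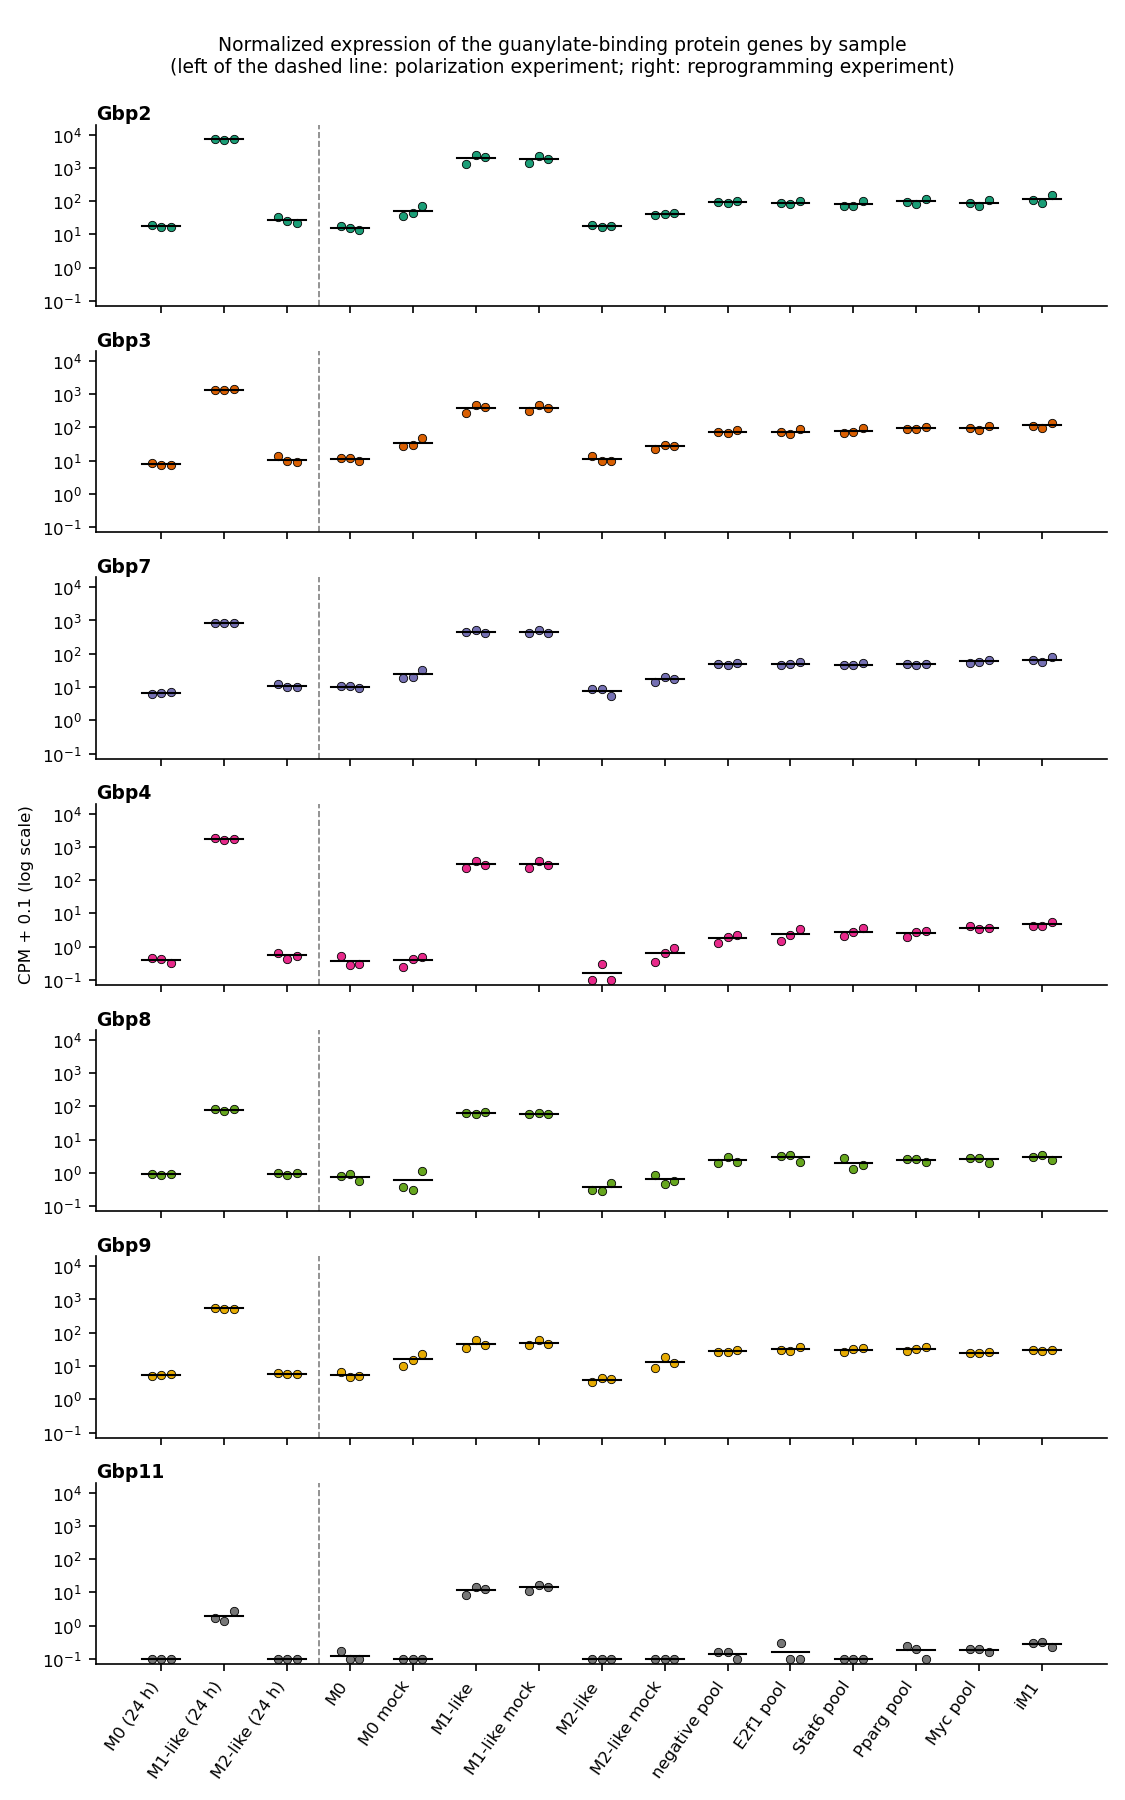
CPM + 0.1 on a log scale for each sample (points) with the mean of each condition (lines), 1 panel per gene, the polarization experiment to the left and the reprogramming experiment to the right of the dashed line. Within each experiment, M1-like and M1-like mock samples stand above all others except for Gbp9, where the lowest M1-like sample (35.4 CPM) lies below the highest samples of the E2f1 pool (36.25 CPM) and the Pparg pool (35.95 CPM).

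IL-4 alone was accompanied by small rises at 24 h. Against M0, 3 of the 7 genes were higher, where 13.5% of genes were higher. These were the 3 of the 7 that lie in the chromosome 3 cluster. The row of that cluster that may hold reads of Gbp2b or Gbp5 overlapped between the groups. It had 1.10 to 1.83 CPM in M2-like and 0.876 to 1.30 CPM in M0 samples. On the log2 scale the rise was largest for Gbp7 (0.68, SE 0.09, adjusted p = 0.000248 from edgeR), followed by Gbp2 (0.60, SE 0.13, adjusted p = 0.00443) and Gbp3 (0.44, SE 0.13, adjusted p = 0.0256). Gbp7, for example, had 12.2, 9.72 and 9.67 CPM in M2-like and 6.24, 6.62 and 6.76 CPM in M0 samples, and for these 3 genes the M2-like samples lay above all M0 samples, as they did for 22.1% of all genes. The chromosome 5 genes did not pass, with 0.54 (SE 0.24) for Gbp4, 0.10 for Gbp9 and 0.02 for Gbp8, and Gbp11 had no reads in either group. The call of Gbp3 was lost without the M0 sample of mouse 2 (0.41) or mouse 3 (0.41), and when only the compared groups were in the model (0.45).

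Between M2-like and M0 samples, the summed levels of 4 of 8 lists of cell type markers did not overlap. The dendritic cell markers were higher in M2-like samples, at 2.14 to 4.21 against 0.901 to 1.16 CPM (1 and 0 of 4 at 1 CPM or more). The T and NK cell markers were lower in M2-like samples, at 0.159 to 0.417 against 0.559 to 0.880 CPM (0 and 0 of 6 at 1 CPM or more), as were the endothelial markers, at 4.77 to 6.15 against 10.3 to 13.6 CPM (1 and 1 of 3 at 1 CPM or more). In M2-like samples, the macrophage markers were lower, at 12729 to 13060.0 against 16161 to 17437 CPM. Siglech stood at 0 in M0 samples. What part these markers had in the rises was not tested.

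In the reprogramming experiment, a rise of untransfected M2-like macrophages over M0 was not called. Gbp7 had 8.80, 8.38 and 5.16 CPM in M2-like and 10.5, 10.7 and 9.48 CPM in M0 samples, and Gbp8 had 0.215, 0.193 and 0.397 and 0.732, 0.807 and 0.477 CPM. None of the 7 genes was called by edgeR, where 10.7% of genes were higher and 9.19% lower. At an unadjusted p under 0.05, 2 genes were lower, and DESeq2 called 1 gene lower, Gbp8.

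M1-like macrophages of the reprogramming experiment again stood far above M2-like ones. Gbp2 had 1335, 2342 and 2111 CPM in untransfected and 1382, 2251 and 1897 CPM in mock M1-like samples. In M2-like samples it had 18.8, 16.8 and 17.8 CPM in untransfected and 37.0, 40.2 and 43.4 CPM in mock samples. Replicate 1 was the lowest M1-like sample in both sets, and the M1-like and M2-like values of Gbp2 did not overlap. Gbp4 had 235, 377 and 286 CPM in mock M1-like and 0.256, 0.561 and 0.836 CPM in mock M2-like samples. Gbp9 had the smallest gap, with 41.6, 61.7 and 44.5 CPM against 8.58, 18.0 and 12.2 CPM in mock samples. Gbp11 had 11.0 to 17.0 CPM in mock M1-like samples and no read in M2-like samples of either set.

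All 7 genes were higher in untransfected M1-like than M2-like macrophages, where 31.3% of the 14172 genes tested were higher, and all 7 in the mock pair, where 30.9% were. The log2 fold changes were 6.76 untransfected and 5.52 mock for Gbp2, and 5.13 and 3.85 for Gbp3. They were 5.96 and 4.76 for Gbp7, 11.95 and 9.09 for Gbp4, 7.81 and 6.78 for Gbp8, and 3.61 and 1.94 for Gbp9. The untransfected value of Gbp4 rests on 3 reads over the M2-like samples, and ranged from 11.41 to 15.23 with 1 sample left out. Gbp11 was at least 197-fold and at least 247-fold higher, and was again tested only through its M1-like reads. Against M0, all 7 genes were higher untransfected, where 29.0% of genes were, and mock, where 30.3% were. Gbp9 had the smallest log2 fold change there as well (3.14 and 1.61).

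Between untransfected M1-like and untransfected M2-like samples, the summed levels of 6 of 8 lists of cell type markers did not overlap. The neutrophil markers were higher in untransfected M1-like samples, at 12.2 to 13.2 against 4.45 to 10.1 CPM (1 and 2 of 5 at 1 CPM or more). The T and NK cell markers were lower in untransfected M1-like samples, at 0.0610 to 0.134 against 0.198 to 0.451 CPM (0 and 0 of 6 at 1 CPM or more), as were the B cell markers, at 0.549 to 1.34 against 4.65 to 12.2 CPM (0 and 4 of 4 at 1 CPM or more). The eosinophil and mast cell markers were lower too, at 0.672 to 1.77 against 16.5 to 18.5 CPM (1 and 2 of 5 at 1 CPM or more), as were the dendritic cell markers, at 0.379 to 1.40 against 1.72 to 2.13 CPM (1 and 1 of 4 at 1 CPM or more). In untransfected M1-like samples, the macrophage markers were lower, at 6955 to 8096 against 16034 to 18409 CPM. Ly6g, Cd3e, Trbc2, Prg2 and Siglech stood at 0 in both groups, S100a9, Mpo, Cd3d, Cd8a and Mcpt4 in untransfected M1-like samples, and Ncr1 and Xcr1 in untransfected M2-like samples.

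Between mock M1-like and mock M2-like samples, the summed levels of all 8 lists of cell type markers did not overlap. The neutrophil markers were higher in mock M1-like samples, at 7.61 to 11.98 against 3.62 to 5.44 CPM (1 and 1 of 5 at 1 CPM or more). The T and NK cell markers were lower in mock M1-like samples, at 0.0544 to 0.116 against 0.139 to 0.320 CPM (0 and 0 of 6 at 1 CPM or more), as were the B cell markers, at 0.816 to 1.82 against 5.09 to 9.39 CPM (1 and 3 of 4 at 1 CPM or more). The eosinophil and mast cell markers were lower too, at 0.786 to 1.45 against 19.3 to 20.8 CPM (1 and 1 of 5 at 1 CPM or more), as were the dendritic cell markers, at 0.871 to 1.52 against 1.81 to 3.30 CPM (1 and 1 of 4 at 1 CPM or more). The fibroblast and mesothelial markers were lower too, at 11.4 to 24.8 against 90.7 to 155 CPM (3 and 5 of 6 at 1 CPM or more), as were the endothelial markers, at 16.9 to 20.1 against 28.6 to 31.1 CPM (1 and 1 of 3 at 1 CPM or more). In mock M1-like samples, the macrophage markers were lower, at 6448 to 7490.1 against 14842 to 16103 CPM. S100a9, Ly6g, Mpo, Trbc2 and Siglech stood at 0 in both groups, Cd3e, Cd8a, Ncr1 and Mcpt4 in mock M1-like samples, and Elane, Cd3d, Epx, Prg2 and Flt3 in mock M2-like samples. Whether the markers in either pair had a part in the GBP values was not tested.

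The gap between M1-like and M2-like macrophages was smaller in mock than in untransfected samples for 4 of 7 genes, tested as an interaction, where 1.09% of genes had a lower difference. It fell by 1.24 for Gbp2 (SE 0.32, adjusted p = 0.0439 from edgeR) and by 1.28 for Gbp3 (SE 0.29, adjusted p = 0.0155 from edgeR) on the log2 scale. It fell by 1.20 for Gbp7 (SE 0.24, adjusted p = 0.00281 from edgeR) and by 1.68 for Gbp9 (SE 0.35, adjusted p = 0.00495 from edgeR). The values of Gbp4 (-2.87, SE 1.07) and Gbp8 (-1.03, SE 0.60) missed the threshold. The call of Gbp2 held only without replicate 1 of untransfected M1-like or replicate 2 of mock M1-like samples, and was lost without any other of the 12 samples (from -1.07 to -1.30). Gbp3 was lost without replicate 2 of M1-like (-1.11), replicate 1 of M1-like mock (-1.16), replicate 2 or 3 of M2-like mock (-1.20 and -1.24) or replicate 2 or 3 of M2-like (-1.19 and -1.21). Gbp9 was lost without replicate 2 of M2-like mock (-1.36) and with only the compared groups in the model (-1.67), and Gbp7 kept its call without each sample in turn.

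Mock cells were compared with untransfected cells in each polarization. Reagent, time in culture and absence of IL-4 cannot be told apart in these comparisons if the untransfected cells were taken at 24 h. In M2-like macrophages, 4 of 7 genes were higher in mock, where 1.67% of genes were, and in M0 macrophages 4 were higher, where 11.7% were. In both, these were Gbp2, Gbp3, Gbp7 and Gbp9. In M2-like macrophages, Gbp3 had 13.3, 9.41 and 9.72 CPM in untransfected and 22.1, 29.6 and 28.3 CPM in mock samples (1.30, SE 0.23, adjusted p = 0.000354 from edgeR). Gbp9 had 3.15, 4.13 and 4.10 and 8.58, 18.0 and 12.2 CPM (1.76, SE 0.28). The mock samples lay above the untransfected ones for both genes, as they did for 6.45% of all genes, and the log2 fold changes of Gbp2 and Gbp7 were 1.18 and 1.19. Gbp4 had 0, 0.193 and 0 CPM in untransfected and 0.256, 0.561 and 0.836 CPM in mock samples. It was not called by edgeR (2.88, SE 1.05, adjusted p = 0.267), but was called by DESeq2 and without the filter on low counts.

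In M0 macrophages, Gbp2 had 18.3, 15.9 and 13.03 CPM in untransfected and 34.8, 42.8 and 70.0 CPM in mock samples, so that replicate 3 stood highest among the mock samples. The log2 fold changes were 1.64 (Gbp2), 1.65 (Gbp3), 1.21 (Gbp7) and 1.61 (Gbp9), while Gbp4 (0.10) and Gbp8 (-0.43) did not pass. In M1-like macrophages, none of the 7 genes was called by edgeR, 0 at an unadjusted p under 0.05 and 0 by DESeq2, and 0% of the genes tested were higher or lower. The log2 fold changes lay between -0.07 and 0.30. Mock M2-like macrophages were not called against mock M0 in any of the 7 genes by edgeR, where 2.19% of genes were higher and 1.64% lower, with 1 gene lower at an unadjusted p under 0.05 and 0 by DESeq2.

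Between mock M2-like and untransfected M2-like samples, the summed levels of 2 of 8 lists of cell type markers did not overlap. The eosinophil and mast cell markers were higher in mock M2-like samples, at 19.3 to 20.8 against 16.5 to 18.5 CPM (1 and 2 of 5 at 1 CPM or more), as were the endothelial markers, at 28.6 to 31.1 against 14.9 to 20.5 CPM (1 and 1 of 3 at 1 CPM or more). Prg2 stood at 0 in both groups, and Epx in mock M2-like samples. Between mock M0 and untransfected M0 samples, the summed levels of 4 of 8 lists of cell type markers did not overlap. The endothelial markers were higher in mock M0 samples, at 30.9 to 39.5 against 11.1 to 18.7 CPM (1 and 2 of 3 at 1 CPM or more). The neutrophil markers were lower in mock M0 samples, at 3.55 to 5.68 against 6.02 to 10.3 CPM (1 and 1 of 5 at 1 CPM or more), as were the eosinophil and mast cell markers, at 9.47 to 12.7 against 16.0 to 24.4 CPM (1 and 1 of 5 at 1 CPM or more). In mock M0 samples, the macrophage markers were lower, at 12906 to 15714 against 16622 to 16988 CPM. S100a9, Ly6g, Epx and Prg2 stood at 0 in both groups, and Mpo in mock M0 samples. The part of these markers in the differences between mock and untransfected cells was not tested.

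The negative siRNA pool was compared with mock in M2-like macrophages to see what siRNA without one of the 4 targets does. Gbp2 had 93.7, 86.2 and 98.8 CPM with the negative pool, above the 37.0, 40.2 and 43.4 CPM of mock. Gbp7 had 47.5, 45.7 and 50.8 CPM against 14.3, 19.4 and 17.2 CPM. Gbp8 had 1.93, 2.93 and 2.002 CPM against 0.768, 0.351 and 0.488 CPM. The negative pool samples lay above all mock samples for Gbp2, Gbp3, Gbp4, Gbp7, Gbp8 and Gbp9, as they did for 16.1% of all genes, and these 6 of 7 genes were called higher, where 6.67% of genes were. The median log2 fold change of the 7 genes was 1.505 beside 0.01 over all genes. Gbp7 gave 1.505, SE 0.16, adjusted p = 9.20e-08 from edgeR, and Gbp8 gave 2.05, SE 0.36, adjusted p = 0.000184. The log2 fold changes of Gbp2, Gbp3 and Gbp9 were 1.21, 1.49 and 1.10, with SEs of 0.22, 0.20 and 0.22. Gbp4 (1.61, SE 0.50, adjusted p = 0.0332 from edgeR) was no longer called without replicate 1 or 2 of mock (1.25 and 1.63) or replicate 2 or 3 of the negative pool (1.56 and 1.41).

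Between negative pool and mock M2-like samples, the summed levels of 4 of 8 lists of cell type markers did not overlap. The eosinophil and mast cell markers were higher in negative pool samples, at 35.4 to 39.4 against 19.3 to 20.8 CPM (2 and 1 of 5 at 1 CPM or more), as were the fibroblast and mesothelial markers, at 158 to 231 against 90.7 to 155 CPM (5 and 5 of 6 at 1 CPM or more). The endothelial markers were higher too, at 72.1 to 77.1 against 28.6 to 31.1 CPM (2 and 1 of 3 at 1 CPM or more). In negative pool samples, the macrophage markers were lower, at 12511 to 13558 against 14842 to 16103 CPM. Epx and Prg2 stood at 0 in both groups. Their part in the GBP values was not tested.

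With all 4 siRNA pools together, 3 of the genes were higher than with the negative pool. Gbp3 had 113, 97.3 and 140.1 CPM in iM1 and 74.0, 66.9 and 83.8 CPM with the negative pool. Gbp4 had 4.20, 4.02 and 5.47 CPM against 1.14, 1.80 and 2.06 CPM. Gbp7 had 62.8, 57.2 and 78.0 CPM against 47.5, 45.7 and 50.8 CPM. The iM1 samples lay above all negative pool samples for these 3 genes and for Gbp11, as they did for 22.1% of all genes, and replicate 3 was the highest iM1 sample of the 3. Gbp2 had 105, 88.2 and 147 CPM in iM1, and its lowest iM1 sample lay within the range of the negative pool. Gbp9 had 29.4, 28.0 and 30.8 CPM against 26.5, 26.2 and 30.03 CPM, and both groups overlapped.

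Against mock, all 7 genes were higher in iM1, where 19.0% of genes were. The log2 fold changes were 3.05 (Gbp4), 2.42 (Gbp8), 2.13 (Gbp3), 1.96 (Gbp7), 1.496 (Gbp2) and 1.19 (Gbp9). Gbp11 had 9 reads over the iM1 and none over the mock samples, at least 2.93-fold more, and its call was lost without replicate 1 of mock. Against the negative pool, 3 of 7 genes were higher, where 12.5% of genes were. These were Gbp4 (1.44, SE 0.31, adjusted p = 0.000773 from edgeR), Gbp3 (0.64, SE 0.19, adjusted p = 0.0111) and Gbp7 (0.46, SE 0.15, adjusted p = 0.0208). Gbp2 (0.29, SE 0.22), Gbp8 (0.37, SE 0.25) and Gbp9 (0.09, SE 0.21) did not pass, nor did Gbp11. Gbp4 kept its call without each sample in turn. Gbp3 and Gbp7 lost theirs without replicate 3 of iM1 (0.49 and 0.32) and without replicate 2 of the negative pool (0.57 and 0.42), and Gbp7 also without replicate 1 of the negative pool (0.45).

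In CPM, the difference between negative pool and mock amounted to 88.9% of the difference between iM1 and mock for Gbp9, 73.2% for Gbp8, 72.0% for Gbp2, 63.3% for Gbp7, 53.4% for Gbp3 and 27.8% for Gbp4. Both differences share the mock samples. The summed levels of all 8 marker lists overlapped between iM1 and the negative pool, with the endothelial markers at 59.2 to 74.6 CPM in iM1.

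The single siRNA pools were compared with mock, with the negative pool and with iM1, and these comparisons share control samples. Against mock, each single pool had 6 of 7 genes higher, where 6.31% (E2f1), 19.8% (Myc), 9.59% (Pparg) and 6.13% (Stat6) of genes were higher. In this order of pools, the log2 fold change of Gbp2 was 1.16, 1.15, 1.30 and 1.0. That of Gbp4 was 2.02, 2.71, 2.16 and 2.32, beside 1.61 with the negative pool. Against the negative pool, the E2f1, Pparg and Stat6 pools had none of the 7 genes called by edgeR, where 0.261%, 2.71% and 0.466% of genes were higher, and 0 by DESeq2. At an unadjusted p under 0.05 the number was 0 for E2f1, 0 for Pparg and 1 for Stat6. The Myc pool had 1 gene higher, where 13.9% of genes were. This was Gbp4 (1.10, SE 0.32, adjusted p = 0.00965 from edgeR), at 3.95, 3.25 and 3.54 CPM, and the call was lost without replicate 1 of the negative pool (0.88).

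iM1 was not called against the Myc pool in any of the 7 genes by edgeR, where 0% of genes were higher, with 0 at an unadjusted p under 0.05 and 0 by DESeq2. Gbp3 stood at 0.27, SE 0.19 there, Gbp4 at 0.34, SE 0.26 and Gbp7 at 0.18, SE 0.15. Against the E2f1 pool, 2 genes were higher in iM1, where 10.3% of genes were, Gbp3 (0.66) and Gbp4 (1.03). Both calls were lost without replicate 3 of iM1 (0.50 and 0.88), and 1 each without replicate 2 (Gbp3, 0.55) or replicate 1 (Gbp4, 0.77) of the E2f1 pool. Against the Pparg pool, 2 genes were higher, where 7.68% were, Gbp4 (0.88) and Gbp7 (0.46). Without replicate 3 of iM1 they stood at 0.73 and 0.32 and were not called, nor was Gbp7 without any replicate of the Pparg pool (0.40 to 0.49), nor Gbp4 without its replicate 1 (0.74) or 2 (0.93).

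Against the Stat6 pool, 3 genes were higher in iM1, where 10.4% of genes were, Gbp3 (0.60), Gbp7 (0.48) and Gbp11, which had 9 reads against none. Gbp3 and Gbp7 lost their calls without replicate 3 of iM1 (0.44 and 0.35), replicate 1 of the Stat6 pool (0.49 and 0.44) or its replicate 2 (0.54 and 0.46). Gbp11 kept its call only without replicate 3 of iM1.

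**Figure D3:**
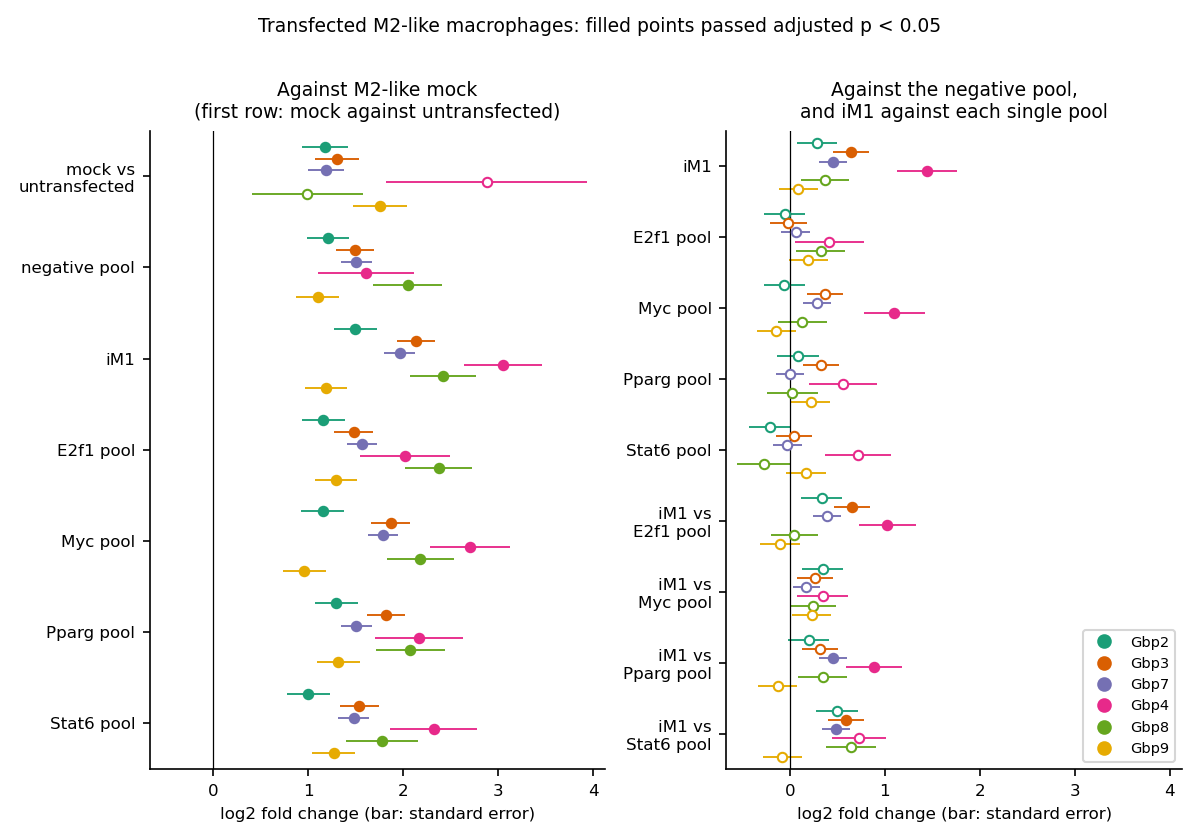
Log2 fold changes (points) with standard errors (bars) of 6 genes, filled where the adjusted p was under 0.05, without Gbp11 because of its few reads. The first row on the left shows mock against untransfected M2-like cells, all siRNA conditions below it lie above 0 against mock, and against the negative pool (right) Gbp4 reaches 1.44 in iM1.

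iM1 was then compared with mock M1-like macrophages, the state the 4 pools were aimed at. All 7 genes were lower in iM1, where 25.6% of genes were lower, and the distance differed widely between genes. Gbp9 reached 59.7% ± 2.90 (SD, n = 3) of the M1-like mock mean, and differed from it by -0.75, SE 0.20, adjusted p = 0.00248 from edgeR on the log2 scale. The SDs of these percentages are those of the iM1 samples and leave out the spread of M1-like mock. For Gbp9, M1-like mock had 49.3 ± 10.8 CPM (SD, n = 3). Gbp3 reached 30.5% ± 5.65 and Gbp7 14.4% ± 2.34, with log2 fold changes of -1.71 and -2.80. Gbp2 reached 6.15% ± 1.65, Gbp8 4.86% ± 0.877 and Gbp4 1.52% ± 0.265, with log2 fold changes of -4.02, -4.35 and -6.04. Gbp11, tested only through its M1-like reads, stood at 1.24%. With the negative pool, the values were 56.0% for Gbp9, 19.5% for Gbp3, 10.5% for Gbp7, 5.04% for Gbp2, 3.80% for Gbp8 and 0.557% for Gbp4, so that these 6 genes kept one order in both conditions.

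Between iM1 and M1-like mock samples, the summed levels of 6 of 8 lists of cell type markers did not overlap. The B cell markers were higher in iM1 samples, at 10.1 to 19.3 against 0.816 to 1.82 CPM (3 and 1 of 4 at 1 CPM or more), as were the eosinophil and mast cell markers, at 23.9 to 36.1 against 0.786 to 1.45 CPM (2 and 1 of 5 at 1 CPM or more). The fibroblast and mesothelial markers were higher too, at 134 to 220.1 against 11.4 to 24.8 CPM (4 and 3 of 6 at 1 CPM or more), as were the endothelial markers, at 59.2 to 74.6 against 16.9 to 20.1 CPM (2 and 1 of 3 at 1 CPM or more). The neutrophil markers were lower in iM1 samples, at 3.75 to 6.68 against 7.61 to 11.98 CPM (1 and 1 of 5 at 1 CPM or more). In iM1 samples, the macrophage markers were higher, at 11914 to 12881 against 6448 to 7490.1 CPM. S100a9, Ly6g and Mpo stood at 0 in both groups, Elane in iM1 samples, and Mcpt4 in M1-like mock samples. What part these markers had in the distance of iM1 from M1-like mock was not tested.

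**Figure D4:**
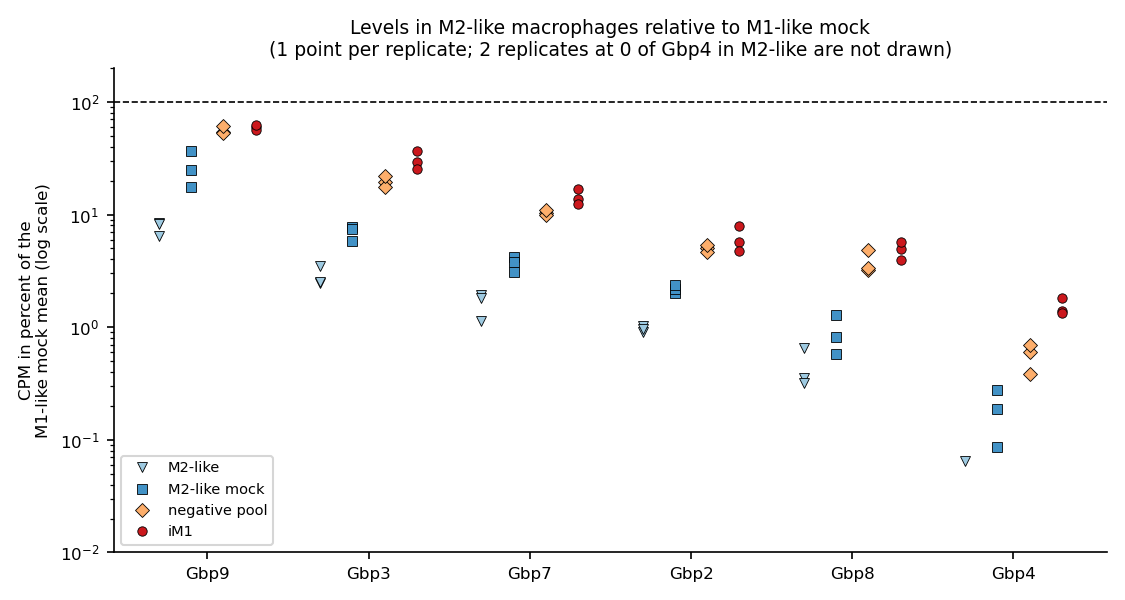
CPM of each replicate in percent of the M1-like mock mean, on a log scale, for M2-like, M2-like mock, negative pool and iM1 samples. In iM1, Gbp9 comes nearest to the M1-like level at 59.7% and Gbp4 stays farthest below it among these 6 genes at 1.52%, and 2 M2-like replicates of Gbp4 at 0 are not drawn.

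Ordered by mean CPM over the 12 conditions of the reprogramming experiment, M1-like and M1-like mock stood at the top for Gbp2, Gbp3, Gbp4, Gbp7, Gbp8 and Gbp9, and these neighbours did not differ at the threshold. The 6 siRNA conditions followed, and within them no neighbour differed from the next for any of these 6 genes. iM1 led them for 5 genes, whereas for Gbp9 the pools against Pparg (32.1 ± 3.52 CPM, SD, n = 3), E2f1 (31.6 ± 4.02 CPM) and Stat6 (31.0 ± 3.81 CPM) stood above iM1 (29.4 ± 1.43 CPM). The step from the lowest siRNA condition to the next passed the test for all 6 genes. It led to a mock condition for Gbp2, Gbp3, Gbp4, Gbp7 and Gbp9, and to untransfected M0 for Gbp8. The step from M2-like mock down to an untransfected condition passed for Gbp2, Gbp3, Gbp7 and Gbp9. For Gbp4 and Gbp8, the order of mock and untransfected M0 and M2-like macrophages was not resolved.

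Levels per kb of exon were taken with the length of all M21 exons of a gene. They do not account for which transcripts were expressed or for how reads of overlapping genes were assigned. On this scale, Gbp2 was the most abundant of the 7 genes in every condition. In M1-like macrophages at 24 h it stood at 2866 CPM per kb, followed by Gbp3 (419), Gbp4 (228), Gbp7 (146), Gbp9 (104), Gbp8 (23.3) and Gbp11 (0.690). The share of Gbp2 in the summed CPM per kb was 75.7% at 24 h and 72.7% in M1-like mock, but 53.7% in M2-like mock and 44.8% in iM1. Gbp3 took 11.8% in M1-like mock and 36.0% in iM1. Gbp4 took 3.97% and 0.613%, and Gbp9 0.953% and 5.81%. Together, the 7 genes summed to 11397 to 11950.5 CPM in M1-like samples at 24 h and to 2468 to 3742 CPM in M1-like mock samples. They summed to 278 to 404 CPM in iM1, 230 to 268 CPM with the negative pool and 83.0 to 108 CPM in M2-like mock samples. Both experiments were normalized separately and differ in read length, so their levels are set side by side without a test.

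**Figure D5:**
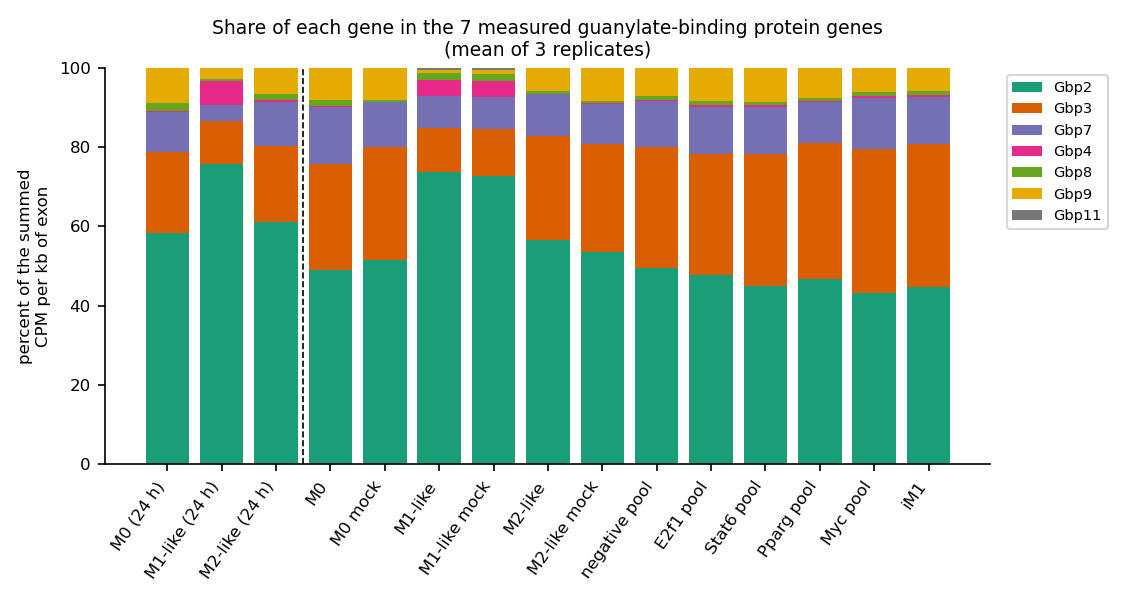
Share of each gene in the summed CPM per kb of exon of the 7 genes, as the mean of 3 replicates in each of the 15 conditions. Gbp2 takes 75.7% in M1-like macrophages at 24 h and 44.8% in iM1, where Gbp3 takes 36.0%.

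Lists of related genes are given as counts of genes called in each direction. Of all genes tested, 34.6% were higher and 38.1% lower in M1-like than M2-like cells at 24 h, 1.67% and 0.0988% in mock against untransfected M2-like, 6.67% and 5.03% with the negative pool against mock, 12.5% and 13.9% in iM1 against the negative pool, and 27.2% and 25.6% in iM1 against M1-like mock.

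Genes that control GBPs were looked at as 21 tested regulators of interferon signalling. At 24 h, 19 were higher and 1 lower in M1-like than M2-like cells, with a median log2 fold change of 3.37 beside -0.06 over all genes. Irf1, which binds ISRE elements, differed by 5.40, Irf8, a factor of the macrophage lineage, by 3.37 and Socs1, an inhibitor of JAK kinases, by 5.30. In mock against untransfected M2-like macrophages, 7 were higher and 0 lower, with Irf1 at 0.60. With the negative pool against mock, 9 were higher and 2 lower, with Irf1 at 0.42. In iM1 against the negative pool, 6 were higher and 4 lower, beside 12.5% and 13.9% of all genes. There, Irf1 rose by 0.41 and Irf8 stood at -0.36, also past the threshold. In iM1 against M1-like mock, 8 were higher and 11 lower, and Irf1 (-3.04), Socs1 (-2.499) and Irf8 (-1.53) passed. Ifnb1, the gene of IFNβ, was named after its values were seen, and is itself among the regulators counted above. It had on average 0.0362 CPM in M1-like mock, 0.0985 CPM with the negative pool and 0.967 CPM in iM1, all under 1 CPM and resting on few reads. The log2 fold change between the last pair was 3.15 (SE 0.73), given without a p-value because the gene was picked by these values.

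Among 13 other interferon-inducible and related GTPases, 11 were higher and 1 lower in M1-like than M2-like cells at 24 h (median 6.20). Irgm1 and Igtp, regulatory GTPases of host membranes, differed by 4.78 and 6.20, and Iigp1, an effector at pathogen vacuoles, by 12.84. In mock against untransfected M2-like macrophages, 9 were higher and 0 lower, and with the negative pool against mock 10 and 0. In iM1, 5 were higher and 1 lower against the negative pool, and 3 were higher and 9 lower against M1-like mock.

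The 20 type I interferon-stimulated genes were counted beside the GBP genes. At 24 h, 20 of them were higher in M1-like than M2-like cells (median 5.90). In mock against untransfected M2-like macrophages 20 were higher (median 3.05), with the negative pool against mock 20 (median 1.31) and in iM1 against the negative pool 7 (median 0.40). In iM1 against M1-like mock, 19 were higher and 0 lower (median 1.60), whereas the 7 GBP genes were lower (median -4.02). In M1-like mock itself, 6 of the 20 were higher and 5 lower than in M2-like mock (median -0.05), where 30.9% of genes were higher. Against M0 mock, 3 were higher and 10 lower in M1-like mock (median -0.38), where 30.3% of genes were higher. Isg15, a ubiquitin-like modifier, had 36.3 CPM in M1-like mock and 199 CPM in iM1. Rsad2, an antiviral enzyme, had 375 and 859.9 CPM. In the interaction of polarization with mock treatment, 20 of the 20 genes were lower (median -2.86), where the median of the 7 GBP genes was -1.24.

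Of 14 inflammasome genes, 10 were higher and 4 lower in M1-like than M2-like cells at 24 h (median 1.71). Casp4, the sensor of cytosolic LPS, stood at 4.04, Casp1 at 1.84, Gsdmd, the pore-forming protein, at 1.59 and Aim2, a DNA sensor, at -0.42. In iM1 against the negative pool, 5 were higher and 2 lower, with Casp4 at 0.68. Of 20 cofactors of GBPs in autophagy and prenylation, 9 were higher and 3 lower at 24 h (median 0.16), beside 34.6% and 38.1% of all genes. In iM1 against the negative pool, 2 of them were higher and 2 lower, beside 12.5% and 13.9% of all genes, so that the higher share of the list was near that of all genes in this comparison. Atg5, of the autophagy conjugation machinery, stood at 0.01 at 24 h. Of the IL-4 response genes, 10 of 12 were lower and 2 higher in M1-like than M2-like cells at 24 h, with Chil3 at -8.43 and Mrc1 at -7.33. In iM1 against the negative pool, 4 of 10 tested were lower and 1 higher, with Chil3 at -0.77.

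Across the 12 condition means of the reprogramming experiment, the pattern of each GBP gene was set beside the mean pattern of the others. Pearson's r of log2 CPM was 0.997 for Gbp7, 0.987 for Gbp2, 0.984 for Gbp4, 0.975 for Gbp8, 0.959 for Gbp3, 0.863 for Gbp11 and 0.805 for Gbp9. Among 10126 other genes with a mean log2 CPM of at least 2, those most like the mean of the 7 genes were Tgtp1 (0.998), Iigp1 (0.996), Gbp2b (0.995), Tap2 (0.992), Tapbpl (0.990), Emc7 (0.990), Arel1 (0.988), Psmb9 (0.988), Pomp (0.988) and Gm4951 (0.985). For Gbp2 they were the row named Gbp2b in M21 (0.994), Tmem67 (0.992) and Hk2 (0.991). The points share their libraries, and the gap between M1-like and other conditions enters each value.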

How the data were processed

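RNA of 54 libraries was analysed from the count tables that the authors deposited, which hold raw counts of reads per Ensembl gene. Per the labels and the methods, the authors trimmed reads with Trimmomatic, aligned them to GRCm38 (mm10) with TopHat2 and counted them with featureCounts. Their versions, the annotation release and the settings for strand and for reads with several matches are not given in the sources used here. Symbols were taken from GENCODE M21, which matched 37607 of 39179 identifiers. The identifier ENSMUSG00000040264 is Gbp2b there, but its row stands before that of Gbp7, where Gbp5 lies in M21, so that its values may be those of Gbp2b or of Gbp5.

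Technical replicates, which differed by 1.07 to 1.10 in chi-square per gene, were summed. Each experiment was fitted as 1 model with edgeR 4.0.16 in R 4.3.3 (TMM, filterByExpr with a minimum count of 10 and a total of 15, two-sided quasi-likelihood test), with Benjamini-Hochberg adjustment over all genes tested and a threshold of 0.05. The SE (standard error) was obtained from each test as the absolute log2 fold change over the root of its F value. Samples of 1 mouse number in the polarization experiment came from the same animal, and their deviations from the condition means had a median correlation of 0.250 (9 pairs, 10755 genes) against -0.135 between different mice. The main fit had no block for mouse, so its p-values do not use this pairing, and a block was run as an alternative. DESeq2 1.42.0 and other filters, scalings, models and left-out samples were alternatives. Tables and plots used Python 3.11.15, NumPy 2.4.6, pandas 2.3.3 and matplotlib 3.10.9.

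All 10 symbols and up to 4 examples per gene list are named, and for likeness the 10 genes with the highest correlation. Some results that the rule would name are not reported here. The genes and lists were chosen with earlier results of these data known.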

Additional observations from a re-analysis of the deposited data

Results flagged for a closer look

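The difference between M1-like and M2-like macrophages was smaller in mock than untransfected samples for 4 genes by an interaction test with edgeR, where 1.09% of genes had a lower difference. Leaving out 1 sample at a time gave 1 to 4 genes. The log2 fold change in mock minus that in untransfected samples was -1.24 for Gbp2, -1.28 for Gbp3, -1.20 for Gbp7 and -1.68 for Gbp9. In these 4 genes, the log2 fold changes of mock against untransfected M1-like samples were -0.07, 0.02, -0.01 and 0.08, and none of them passed the threshold.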

How the results depend on the processing

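No called result reversed its direction under any alternative that was run. Some log2 fold changes that were not called changed sign when 1 sample was left out, such as Gbp4 in M0 mock against M0 (-0.149 to 0.556). Of counts of called GBP genes, 389 stayed within 1.5 times the reported count and 23 moved, and of log2 fold changes of single genes, 1100 kept their side of the threshold, 29 newly passed it and 2 lost it. With at least 10 counts in every sample, 4 genes of the reprogramming experiment were left to test and the counts were 4 in place of 7 for its untransfected and mock M1-like against M2-like or M0, for iM1 against M2-like mock and, as lower, against M1-like mock. That filter also gave 0 in place of 1 for the Myc pool against the negative pool and 1 in place of 2 for iM1 against the Pparg pool. With a log2 fold change of at least 1 required, M2-like against M0 at 24 h gave 0 in place of 3, iM1 against the negative pool 1 in place of 3, and iM1 against the E2f1, Pparg and Stat6 pools 1, 0 and 1. Without the filter on low counts, 2 genes were lower in untransfected M2-like against M0 (1 with DESeq2) and 2 in the mock pair, and 3, 1, 4 and 6 were higher for the Myc and Pparg pools against the negative pool and for iM1 against the E2f1 and Stat6 pools. With only the compared groups in the model, the Myc and Pparg pools gave 3 and 1 against the negative pool. The cause of these shifts was not tested, except that the stricter filters act on fewer genes by construction.

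Replicate numbers of the reprogramming experiment mark no shared source in the labels. Samples of the same number had a median correlation of 0.183 (lowest -0.249, 198 pairs) and 34 of 36 samples were closest to their own number. With the replicate block, iM1 against the Stat6 pool gave 5 genes in place of 3, and no other count of called genes moved by over 1.5 times, nor did the block change a count in the polarization experiment. Leaving out 1 sample at a time gave 1 to 3 genes higher in iM1 against the negative pool, 0 to 1 for the Myc pool against it, 0 to 3, 0 to 2 and 0 to 3 for iM1 against the E2f1, Pparg and Stat6 pools, 0 to 1 lower in M2-like mock against M0 mock and 1 to 4 lower in the interaction. In the leave-outs, 52 calls of single genes were lost and 6 gained. A sum of Gbp6 and Gbp10 was not run because neither had a row. Values of Gbp4, Gbp8 and Gbp11 outside M1-like macrophages rest on few reads and are limited by depth.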

Other observations

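The identifier ENSMUSG00000079362 (Gm43302 in GENCODE M21) spans the loci of Gbp6 and Gbp10 on chromosome 5, and all of its transcript stretches of 50 bases also occur in another gene, 93.0% of them in Gbp6, so its reads cannot be told apart from those of Gbp6 and Gbp10. It had 153, 251 and 208 CPM in M1-like mock and 3.14, 5.19 and 2.93 CPM in M2-like mock samples. With the negative pool it had 21.1, 21.8 and 23.8 CPM, with the Myc pool 47.0, 38.0 and 48.2 CPM and in iM1 47.8, 42.3 and 56.7 CPM. The iM1 samples lay above all negative pool samples, as they did for 22.1% of all genes.

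The row of ENSMUSG00000040264, which may hold reads of Gbp2b or of Gbp5, had 308, 432 and 331 CPM in M1-like mock, 11.2, 12.2 and 12.8 CPM with the negative pool and 21.5, 17.7 and 33.1 CPM in iM1. The iM1 samples lay above the negative pool samples, as they did for 22.1% of all genes (0.99, SE 0.23, adjusted p = 0.00146 from edgeR).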
